A study of Mus musculus with 16 samples.

Results

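SDS (sodium dodecyl sulfate) is a detergent that strips lipids from the skin surface and irritates it. The comparison described here sets 2 libraries of mouse whole skin titled SDS, day 1, against 2 libraries titled SDS, day 0, and takes in every gene of the deposited table. These 4 libraries are chosen by their titles alone, of 16 in the series. The other 12 are SDS at days 3 and 5, and SDS with Topsym at days 0, 1, 3 and 5, with 2 libraries in each of the 8 groups. Both groups compared are labelled as whole skin of mice aged 7 weeks with a topical treatment lasting 4 days, and their labels name no Topsym. The sources used here give neither strain, sex and genotype nor the day on which SDS was first applied. The labels leave unsaid whether both libraries of a day come from different mice. Each p-value therefore rests on how far libraries of the same group lie apart, and that spread may be technical. The spread was estimated over all 8 groups, so it also draws on the other days and on the Topsym groups. No group without SDS is titled day 1, so SDS, time, animal and the tissue sampled cannot be told apart in the difference between the days.

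As background, the outer skin is a stratified epithelium whose cells divide in the basal layer, leave the cell cycle and fill with keratins, envelope proteins and lipids as they move up. When the barrier is damaged, keratinocytes switch on stress keratins, small proline-rich proteins, antimicrobial proteins, growth factors of the EGF family and cytokines of the interleukin 1 family. Whole skin of the mouse also holds dermal collagen, dermal fat, hair follicles with sebaceous glands, vessels, nerves and, in most biopsies, some of the thin skeletal muscle sheet beneath. Glucocorticoids and fasting act on many of the same metabolic genes in muscle, fat and skin, among them the targets of the FoxO and PPAR factors.

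Values are normalised reads, that is read counts divided by a size factor of the library. Changes are differences of log2(normalised reads + 1), day 1 minus day 0, with a standard error (SE) and an adjusted p from limma, and such differences understate the change of genes with few reads. The 2 day 1 libraries held 21199889 and 24145600 reads and the 2 day 0 libraries held 23345010 and 25704707, within a range of 15199656 to 32066246 over all 16. The 10 highest genes took 6.09 to 7.06% of the reads of the 4 libraries. The defining genes of skin were abundant at both days: Krt14, the basal layer keratin, stood at 96863 and 89057 at day 1 and at 95786 and 99024 at day 0, and did not pass the test (log2 change -0.07 ± 0.05, adjusted p = 0.332). Skeletal muscle genes were also abundant in all 4 libraries, so the sample held muscle as well as skin.

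Of 19189 genes tested, 2449 were higher at day 1 (12.8%) and 2588 were lower (13.5%) at an adjusted p of 0.05, or 5037 in all (26.2%). The median change over all genes tested was -0.03. Changes of at least 2-fold were fewer, with 512 genes higher (2.67%) and 578 lower (3.01%), and 2384 of the called genes changed by less than 0.5 on the log2 scale. The day 1 and day 0 libraries did not overlap for 12268 of the genes tested (63.9%) and for all 5037 of those called. Lack of overlap in a called gene therefore adds nothing to its call, and genes named for the size of their change were required to show it. Without the second day 0 library, the number of genes called lower was 1714.

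The gene with the largest rise was Pdk4 (ENSMUSG00000019577, chr6:5483351-5496309, minus strand, GRCm38, GENCODE M21), a kinase that blocks the entry of pyruvate into the mitochondrial citrate cycle and so spares glucose. It stood at 17079 and 17311 in the day 1 libraries, against 688 and 588 in the day 0 libraries. The rise was 26.9-fold in means (log2 change 4.75 ± 0.11, adjusted p = 1.06e-14). Serpina3m, a secreted inhibitor of serine proteases, stood at 631 and 613 at day 1, against 32.6 and 28.8 at day 0 (4.30 ± 0.34). Slpi, which inhibits neutrophil elastase and kills bacteria, stood at 879 and 846, against 44.9 and 48.1 (4.18 ± 0.09). In each of these genes both day 1 libraries lay more than 10-fold above both day 0 libraries. Angptl4, an inhibitor of lipoprotein lipase, rose 13.2-fold in means, with 2841 and 2629.9 at day 1 and 199 and 216 at day 0. Sh2d5 (12.6-fold) and Doc2b (11.7-fold), which codes for a calcium sensor of vesicle release, were also among the 15 largest rises.

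Among the 15 largest falls, that of Myh7, the myosin heavy chain of slow fibres (ENSMUSG00000053093, chr14:54970684-54994626), came first. It stood at 0.971 and 2.52 at day 1, against 130.4 and 151 at day 0 (-5.74 ± 0.96, adjusted p = 0.000251). Lrrc38, an auxiliary subunit of potassium channels, stood at 1.94 and 1.68, against 113 and 134 (-5.46 ± 0.91). Crabp1, which binds retinoic acid in the cytoplasm (ENSMUSG00000032291, chr9:54764748-54773110), stood at 12.6 and 6.72, against 232 and 233 (-4.51 ± 0.56, adjusted p = 1.23e-05). The day 1 libraries held almost no reads of the first pair and few of Crabp1, while both day 0 libraries held well over 100. Ky, a muscle protein of the Z-disc, fell by 3.69, Ptn, a heparin-binding growth factor, by 2.99, and Has2, which makes hyaluronan, by 2.83. Tmem254c was the least even of the leading genes, with 59.2 and 5.88 at day 1 and 98.7 and 315 at day 0 (-3.12 ± 0.96), and it did not pass without the second day 0 library (-2.29) or the second day 1 library (-1.56), with DESeq2 (-2.67), with a robust variance prior, or in fits of the 4 libraries alone or the 8 of SDS alone.

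**Figure D1:**
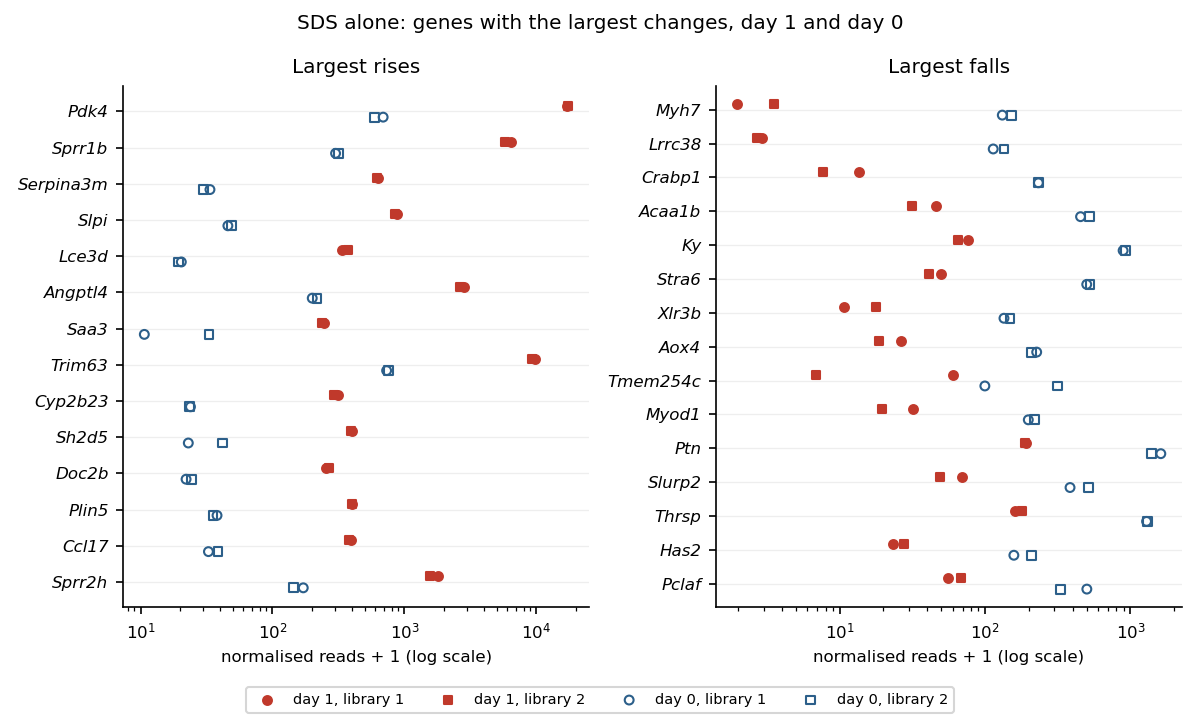
Normalised reads + 1 on a log scale (x axis) in each of the 2 day 1 libraries (filled) and 2 day 0 libraries (open) of SDS alone, for the largest rises (left, from Pdk4 to Sprr2h) and the 15 largest falls (right, from Myh7 to Pclaf). The filled and open points do not overlap in any of these genes because the rule that chose them required it. In all but Tmem254c the gap between the days is wider than that between the libraries of a day.

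Genes were also grouped in 59 lists by role. Some genes are in several lists, so the lists are not independent. Klf15 is among both glucocorticoid targets and fasting genes, and Ctsl among both muscle breakdown and autophagy genes. Sprr1a, Sprr1b, Sprr2d, Sprr2h and Lce3a are in the list of stress keratins and antimicrobial genes and in that of envelope genes. Targets of the glucocorticoid receptor rose as a group: of 29 tested, 25 were higher and 1 was lower, with a median change of 1.03 beside -0.03 for all genes. The labels name no glucocorticoid for these 4 libraries. Fkbp5, a co-chaperone that dampens the receptor and is one of its best known targets (ENSMUSG00000024222, chr17:28399094-28517527), stood at 10914 and 10832 at day 1, against 2246 and 2206 at day 0 (2.29 ± 0.04, adjusted p = 1.58e-15). Ddit4, an inhibitor of mTOR signalling, stood at 7703 and 7383, against 1353 and 1389.6 (2.46 ± 0.05). In both genes the libraries of a day lay close together and the days did not overlap. Zbtb16, a transcription factor, stood at 3638 and 3832, against 1055 and 1190.0 (1.74 ± 0.07). Tsc22d3, also called Gilz, an anti-inflammatory target, rose less, with 13305 and 13027 at day 1 and 6206 and 6786 at day 0 (1.02 ± 0.05). Klf15 (1.52), Klf9 (1.04) and Sgk1 (0.82) rose too. Summed over the list, the libraries held 145737 and 144473 at day 1 and 72443 and 73039 at day 0.

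The receptor and its local control moved in mixed directions. Of 12 such genes tested, 3 were higher and 3 lower, with a median of 0.11. Nr3c1, the receptor itself, stood at 1868 and 1882 at day 1, against 3253 and 3015 at day 0 (-0.74 ± 0.09, adjusted p = 6.8e-06), and its chaperone Fkbp4 fell by 0.69. Hsd11b1, the enzyme that makes active glucocorticoid from its inactive form inside cells, stood at 621 and 707, against 418 and 492 (0.55 ± 0.11, adjusted p = 0.00165). H6pd, which supplies that enzyme with its cofactor, stood at 2029.8 and 1931, against 654 and 779 (1.47 ± 0.13). The receptor was therefore lower at day 1 while both enzymes were higher, with no overlap of libraries in any of the 3 genes.

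Promoter windows of 300 bases, from 250 before to 50 after the start given by RefSeq, were matched for 10462 of the genes tested. The letters GNACA followed, after any 3 bases, by TGTNC, a form of the glucocorticoid response element, were searched on both strands. They were found in 0.373% of all windows, in 0.871% of those of genes called higher and in 0.446% of those of genes called lower. Among genes called with a change of at least 2-fold, the shares were 2.68% for rises and 1.18% for falls. In the list of glucocorticoid targets, 2 of 17 windows (11.8%) held them, those of Mt1 and Map3k6. The window of Trim63 held them 1 base away from the FoxO letters GTAAACA, and that of Txnip held both, further apart. Other listed genes with the response element letters were Serpina3n (1.87) and Epcam (0.35), which rose, and Scd3 (-1.25) and Jund (-0.19), which fell. Stretches of these 4 windows (RefSeq, GRCm38.p6, 5′ to 3′ on the gene's strand, which is plus in all 4) are shown because these genes rose together, with the matched letters of both motifs in capitals, on whichever strand they lie.
Trim63, chr4:134314892-134314951: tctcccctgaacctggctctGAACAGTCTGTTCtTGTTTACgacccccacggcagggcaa
Mt1, chr8:94178971-94179030: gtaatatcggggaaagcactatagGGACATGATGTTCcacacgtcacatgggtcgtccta
Map3k6, chr4:133240613-133240672: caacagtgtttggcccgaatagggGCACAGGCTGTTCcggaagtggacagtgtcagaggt
Txnip, chr3:96557764-96557863: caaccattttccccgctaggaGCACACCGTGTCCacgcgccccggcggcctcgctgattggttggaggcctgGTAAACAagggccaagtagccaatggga
The GTAAACA letters were in 2.61% of all windows, 3.69% of those called higher and 1.91% of those called lower. A match is only a description of the window, and most glucocorticoid targets held none within it. Of the genes shown, Mt1, a metallothionein that binds zinc, stood at 11050.2 and 10219.8 at day 1, against 2789 and 2661 at day 0 (1.96 ± 0.04), and Map3k6, a stress kinase, stood at 3817 and 3604, against 1146 and 1230.1 (1.64 ± 0.06). Txnip, which restrains glucose uptake, stood at 45646 and 46156, against 14293 and 14434 (1.68 ± 0.04).

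Genes of fasting, PPAR and FoxO signalling rose, with 19 of 24 tested higher and 3 lower (median 1.12). Beside Pdk4, Angptl4 and Txnip, the list held Plin5, a coat protein of lipid droplets in oxidative tissue, at 400.1 and 399 at day 1, against 37 and 34.5 at day 0 (3.45 ± 0.26). Ucp3, a mitochondrial carrier of muscle, stood at 1063 and 1065, against 159 and 135 (2.86 ± 0.14). Outside the list, Pck1, the committed enzyme of glucose and glycerol synthesis, stood at 2445 and 2482, against 255 and 282 (3.20 ± 0.22, adjusted p = 1.65e-08). Each of these 3 genes was several times higher in both day 1 libraries. Irs2, which carries the insulin signal, rose by 1.53.

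Genes of muscle protein breakdown rose in 15 of 18 tested, with 1 lower (median 0.72). Trim63, the muscle ubiquitin ligase also called MuRF1 (ENSMUSG00000028834, chr4:134315120-134329629, plus strand), stood at 9789 and 9199.9 at day 1, against 731 and 752 at day 0, which is 12.8-fold in means (3.68 ± 0.06, adjusted p = 5.79e-16). Fbxo32, the ligase also called atrogin-1, stood at 8067 and 8089, against 2499 and 2417 (1.72 ± 0.06). The member that fell was Mstn, myostatin, a growth inhibitor of muscle, with 683 and 766 at day 1 and 1113 and 1035 at day 0 (-0.57 ± 0.15). Of 20 genes of autophagy and the lysosome, 10 were higher and 2 lower (median 0.34). Gabarapl1, of the autophagosome membrane, rose by 1.30 and the lysosomal protease Ctsl by 1.14. Markers of skeletal muscle moved the other way over the same libraries: their summed level was 471437 and 464942 at day 1 and 629646 and 628609 at day 0.

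In skeletal muscle itself, 24 of 27 genes tested were lower and 1 higher (median -0.56). Beside Myh7, Tnnc1, the slow troponin C, stood at 1.94 and 1.68 at day 1, against 42.3 and 56.9 at day 0 (-4.16 ± 0.55). Myl2, the slow myosin light chain, stood at 0 and 4.2, against 47.6 and 52.9 (-4.49 ± 0.82), and Tnnt1, the slow troponin T, at 34 and 34.4, against 154 and 156 (-2.15 ± 0.35). Tnnc1 and Myl2 were close to absent in the day 1 libraries, whereas Tnnt1 was lower but still present. Among the abundant fast myosins, Myh2 stood at 3255 and 2972, against 11845 and 11265 (-1.89 ± 0.06), Myh1 fell by 0.56 and Myh4, the most abundant, fell by 0.26, with 107201 and 105912 at day 1 and 132226 and 122622 at day 0. Actn2, of the Z-disc, was the member that rose (0.19 ± 0.04). Myod1, the transcription factor of muscle precursors, stood at 31.1 and 18.5, against 197 and 219 (-3.06 ± 0.44, adjusted p = 5.12e-05), while Myog fell by 0.96. In whole tissue, fewer cells of a type and less RNA per cell cannot be told apart.

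**Figure D2:**
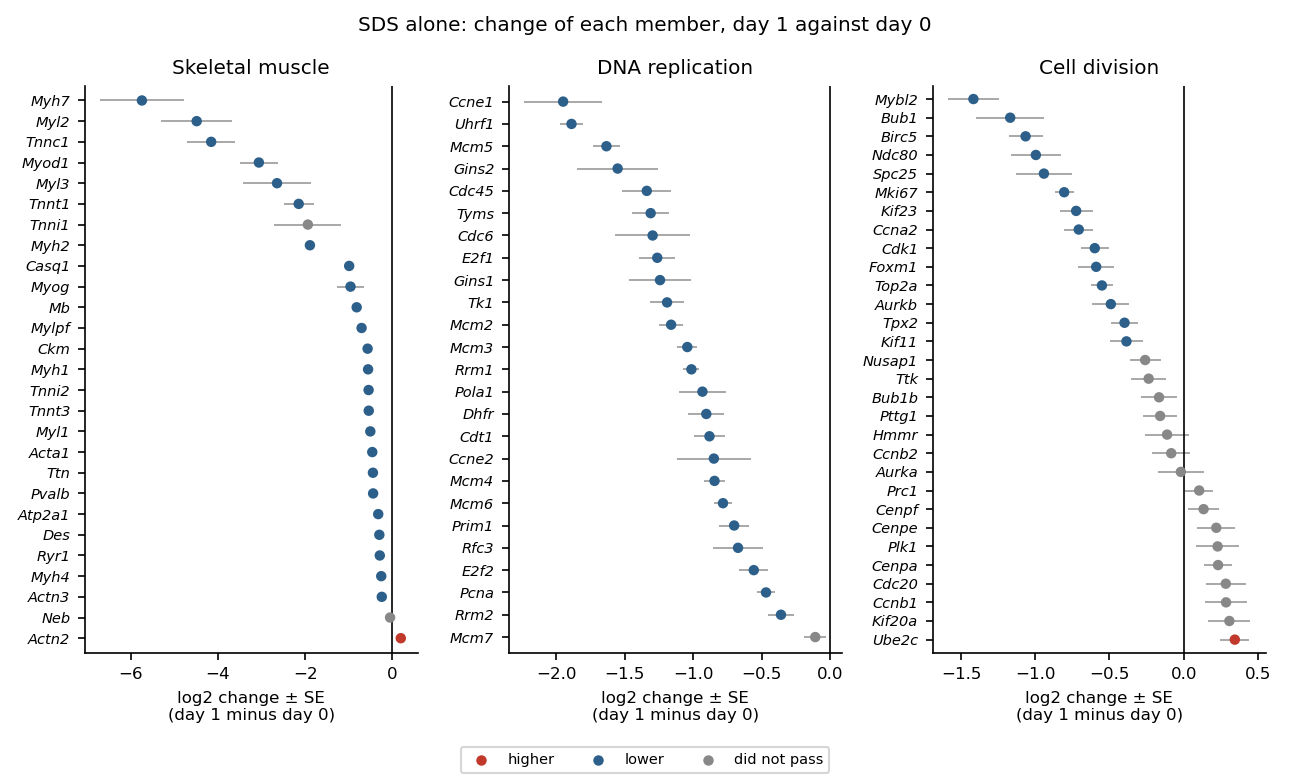
Log2 change from day 0 to day 1 of SDS alone with its SE (x axis) for each tested gene of skeletal muscle (27), DNA replication (25) and cell division (30), coloured by whether it passed the test as higher or lower. Myh7, Myl2 and Tnnc1 lie furthest left among the muscle genes, all 25 replication genes lie left of 0, 24 of them past the test, and the cell division genes lie on both sides.

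Among lipid genes, many of lipolysis were higher and most of fatty acid synthesis were lower. Of 18 lipolysis genes, 9 were higher and 5 lower (median 0.31). Pnpla2, the first lipase of stored fat, stood at 9668 and 8818 at day 1, against 3351 and 3617 at day 0 (1.41 ± 0.07), and Lipe, the hormone-sensitive lipase, at 1829 and 1761, against 927 and 881 (0.99 ± 0.08). Mgll, the last lipase of the chain, went the other way, with 4034 and 3767 at day 1 and 6201 and 6505 at day 0 (-0.70 ± 0.06). The droplet proteins Cidec (1.78) and Plin4 (1.42) rose. Without the second day 0 library, 3 lipolysis genes were lower.

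Fat cell markers divided evenly, with 7 of 19 higher and 7 lower (median 0.06), or 4 lower without the second library of either day. Their summed level was 60699 and 57698 at day 1 and 39998 and 42471 at day 0. Lep, the satiety hormone leptin, stood at 1083 and 1022, against 334 and 291 (1.75 ± 0.41, adjusted p = 0.00446). Adipoq, the hormone adiponectin, stood at 1177 and 1070.2, against 1473 and 1709 (-0.50 ± 0.15), and Retn, resistin, fell by 1.05. Most of the higher sum at day 1 lay in Pnpla2, Plin4, Cidec and the fatty acid carrier Fabp4, while these hormones other than Lep were lower.

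Of 22 fatty acid synthesis genes, 18 were lower and 2 higher (median -0.45). Elovl6, which lengthens palmitate to stearate (ENSMUSG00000041220, chr3:129532355-129638495, plus strand), stood at 2460.0 and 2457 at day 1, against 12425 and 12153 at day 0, a fall to a fold of 0.2 in means (-2.32 ± 0.05, adjusted p = 1.06e-14). Scd1, which desaturates stearate to oleate, stood at 20859 and 21659, against 40877 and 39916 (-0.93 ± 0.04), and Fasn, the fatty acid synthase, at 4485 and 4399, against 8928 and 9726 (-1.07 ± 0.05). All 3 were lower in both day 1 libraries than in either day 0 library. Acss2, which makes acetyl-CoA from acetate, fell by 1.68, whereas Lpin1 (0.94 ± 0.06) and Elovl1 (0.58 ± 0.06), which lengthens very long chains, were the members that rose. Thrsp, a regulator of lipid synthesis, fell by 2.94 and missed the threshold in the fit of the 8 libraries of SDS alone and with a robust variance prior. Summed, the list held 84871 and 86198 at day 1 and 132263 and 131737 at day 0.

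Sebaceous gland markers moved with these genes, and the lists share members such as Scd3. Of 18 tested, 10 were lower and 4 higher (median -0.42), or 2 higher without the second day 1 library, and their summed level was 46984 and 45966 at day 1 and 75079 and 75696 at day 0. Their part in the fall of the synthesis genes was not tested. Far2, which makes wax alcohols of sebum, stood at 2356 and 2334, against 6158 and 5763 (-1.34 ± 0.06), and Acaa1b, a peroxisomal thiolase, at 44.7 and 30.2, against 453 and 522 (-3.69 ± 0.33). Cyp2g1 fell by 1.75 and Soat1, which esterifies cholesterol, by 1.07. All 4 genes were lower in both day 1 libraries. In cholesterol synthesis 9 of 22 were lower and 3 higher (median -0.07). Fatty acid oxidation had 9 of 25 higher and 5 lower (median 0.11), led by Acot2 (1.89) and by Cpt1a, the entry step into mitochondria (0.99). In uptake and transport 11 of 20 were higher and 8 lower (median 0.30), and Cd36, a fatty acid receptor, stood at 3158 and 3189.8, against 1688 and 1384 (1.05 ± 0.09).

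In the epidermis, genes of stress and defence rose: of 25 stress keratins and antimicrobial genes tested, 21 were higher and 1 lower, with a median of 2.07, the highest of the 59 lists. Lcn2, which withholds iron from bacteria, stood at 1451 and 1348 at day 1, against 141 and 155 at day 0 (3.23 ± 0.08). Krt16 stood at 5939.8 and 5864, against 1723 and 1844 (1.73 ± 0.07), and Krt6b at 603 and 579, against 151 and 195 (1.78 ± 0.10). Its close relative Krt6a rose less, with 4233 and 4037 at day 1 and 2417 and 2708 at day 0 (0.69 ± 0.07). Krt17, a further stress keratin, fell by 0.29. S100a8, an antimicrobial calcium-binding protein of neutrophils and stressed keratinocytes, stood at 121 and 125, against 24.7 and 40.1 (1.94 ± 0.16), and its partner S100a9 at 302 and 265, against 108 and 106 (1.39 ± 0.11). Both partners were higher in each day 1 library than in either day 0 library. Defb3, a defensin, held 42 reads over the day 1 libraries and 2 over the day 0 libraries, a ratio of 22.5 with a 95% counting interval of 5.86 to 192, which covers counting error only.

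The small proline-rich (Sprr) and late cornified envelope (Lce) genes code for proteins cross-linked into the envelope of dead surface cells. Of 36 tested, 28 were higher and 4 lower (median 1.00). Sprr1b (ENSMUSG00000048455, chr3:92436809-92438789, minus strand) stood at 6423 and 5784 at day 1, against 299 and 317 at day 0, or 19.8-fold in means (4.30 ± 0.06, adjusted p = 1.54e-16). Sprr1a, the most abundant of the family, stood at 51630.3 and 44889.8, against 8188 and 7849 (2.59 ± 0.06), and Sprr2h at 1784 and 1548, against 170.0 and 143 (3.41 ± 0.08). Sprr2d (3.06), Sprr2e (2.51), Sprr2f (1.52), Sprr2g (2.83) and Sprr2i (3.37) rose as well. Sprr3 held 54 reads over the day 1 libraries and 0 over the day 0 libraries, at least 19.3-fold higher when the floor is 3 reads over the group. The near-identical copies Sprr2a1, Sprr2a2 and Sprr2a3 went the other way on few reads: Sprr2a1 held 1 read over the day 1 libraries and 21 over the day 0 libraries, a ratio of 0.0511 (95% counting interval 0.00124 to 0.318). Reads of these copies can be shared, so their split is uncertain.

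The Lce genes divided by subfamily. The Lce3 genes, which are known to be switched on in damaged skin, rose strongly: Lce3d stood at 336 and 373 at day 1, against 19.4 and 18.4 at day 0 (4.16 ± 0.09), and Lce3c at 639 and 609, against 72.2 and 57.7 (3.25 ± 0.10). Lce3e (3.37), Lce3b (2.98), Lce3f (2.77) and Lce3a (2.07) also rose. Among the constitutive Lce1 genes, Lce1m, the most abundant, did not pass, with 30109.7 and 23659.5 at day 1 and 22683 and 24084 at day 0 (0.19 ± 0.09, adjusted p = 0.134). Lce1d fell by 0.19. These examples do not stand for the whole list, since 28 of the 36 Sprr and Lce genes were higher and 4 lower. The day 1 libraries therefore lay well above the day 0 libraries in all 6 Lce3 genes and overlapped them in Lce1m.

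**Figure D3:**
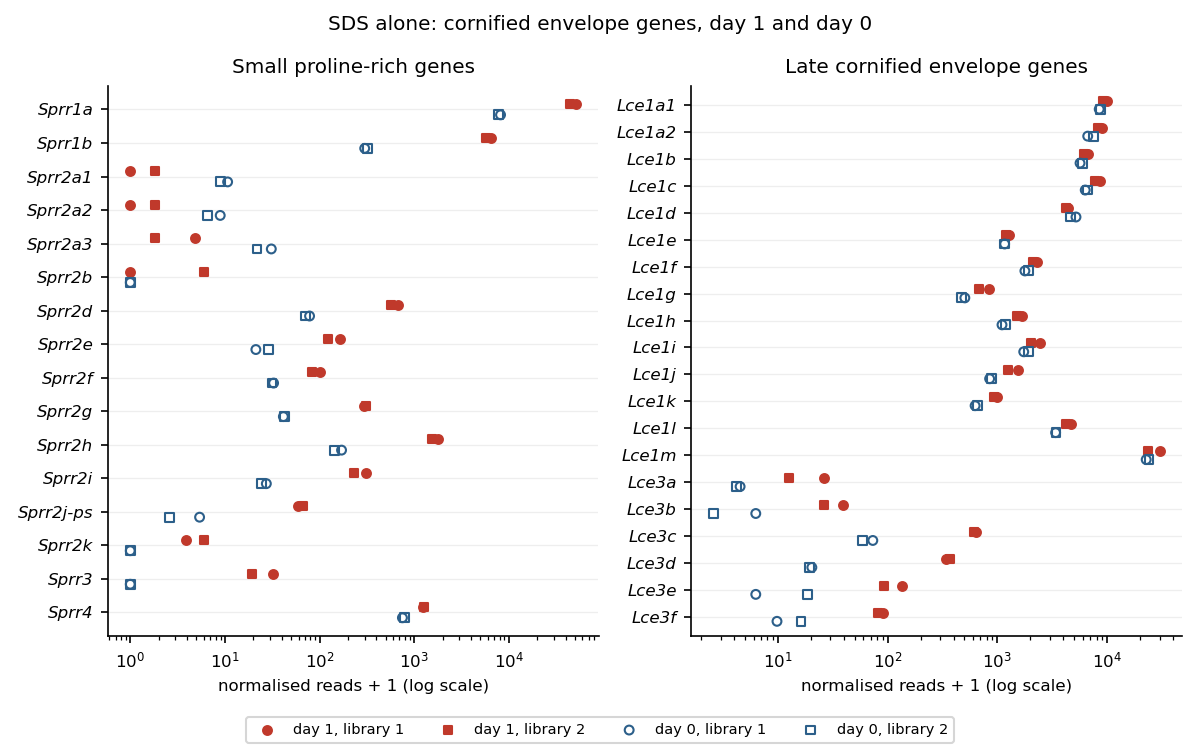
Normalised reads + 1 on a log scale (x axis) in each of the 2 day 1 libraries (filled) and 2 day 0 libraries (open) of SDS alone, for the Sprr genes (left) and the Lce genes (right). Day 1 points lie far right of day 0 points in Sprr1b, Sprr2d to Sprr2i and the Lce3 genes, left of them in the Sprr2a copies, and close to them in the Lce1 genes.

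The letters TGANTCA, which the AP-1 factors bind, were searched on both strands of the same 300-base windows. They were in 5.86% of all windows, 8.24% of those of genes called higher and 4.91% of those called lower. Among genes called with a change of at least 2-fold, the shares were 12% for rises and 7.67% for falls, so the letters were not confined to rises. Among stress keratins and antimicrobial genes 4 of 18 windows (22.2%) held them, those of Sprr1a, Sprr1b, Sprr2d and Sprr2h. Stretches of 3 of these 4 are shown because they held the letters and the genes rose (RefSeq, GRCm38.p6, 5′ to 3′ on the gene's strand, which is minus for the first pair and plus for Sprr2h), with the matched letters in capitals.
Sprr1a, chr3:92485980-92486039: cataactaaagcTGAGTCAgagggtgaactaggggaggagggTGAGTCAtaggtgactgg
Sprr1b, chr3:92438858-92438917: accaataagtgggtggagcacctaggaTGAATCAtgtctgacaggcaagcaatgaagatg
Sprr2h, chr3:92385460-92385519: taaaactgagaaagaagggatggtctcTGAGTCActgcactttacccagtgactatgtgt
The Sprr1a stretch held the letters at 2 places and the others at 1.

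Genes of regular differentiation were mixed, with 18 of 30 higher and 8 lower (median 0.27), or 5 lower without the first day 0 library. Krt1 and Krt10, the paired keratins of the suprabasal layers, both fell: Krt1 stood at 34189 and 30821 at day 1, against 82953 and 80944 at day 0 (-1.34 ± 0.05), and Krt10 at 139009 and 130720, against 184379 and 189752 (-0.47 ± 0.05). Cnfn, cornifelin of the envelope, stood at 11636 and 10750.3, against 3359 and 3677 (1.67 ± 0.05). Tgm1, which cross-links the envelope, rose by 0.95, and Asprv1, a protease of the granular layer, by 1.03. The paired suprabasal keratins were thus lower and these 3 later genes higher, without overlap of libraries. Basal and hemidesmosome genes had 11 of 15 higher and 3 lower (median 0.26), with Lama3 (0.77) and Itga6 (0.71) rising and Krt15 falling by 0.39. Among tight junction, gap junction and desmosome genes 14 of 23 were higher and 1 lower (median 0.25). Gjb2, a gap junction protein, stood at 809 and 854, against 203 and 209 (2.00 ± 0.05), Gjb6 rose by 2.21 and Cldn1, the main claudin of the epidermal barrier, by 1.02.

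Genes that make barrier lipids rose in 18 of 24 and fell in 3 (median 0.45). Cers3, the ceramide synthase of the stratum corneum, stood at 1998 and 2061 at day 1, against 980.4 and 927 at day 0 (1.09 ± 0.05), and Alox12b, a lipoxygenase needed for the lipid envelope, at 5249 and 5223, against 2518 and 2636 (1.02 ± 0.05). Its partner Aloxe3 (1.00 ± 0.06) and the lipid transporter Abca12 (0.73 ± 0.05) rose as well. The falls were Cers4 at 987 and 1013, against 3426 and 3300.1 (-1.75 ± 0.07), Fa2h, the fatty acid hydroxylase, at 2384 and 2401, against 7869 and 8164 (-1.74 ± 0.08), and Elovl4 (-0.53 ± 0.05). Of 27 epidermal proteases and inhibitors 15 were higher and 5 lower (median 0.29). Klk6, a kallikrein protease, stood at 2378 and 2033, against 299 and 259.6 (2.97 ± 0.07). Among inhibitors Serpinb6c rose by 2.48, whereas Serpinb12 stood at 53.4 and 81.4, against 402 and 389 (-2.56 ± 0.18).

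Most growth factors of the EGF family and most genes of the interleukin 1 family were higher. In the EGF family 10 of 14 were higher and 2 lower (median 0.59). Ereg, epiregulin (ENSMUSG00000029377, chr5:91074622-91093646), stood at 4715 and 5298 at day 1, against 803 and 721 at day 0 (2.71 ± 0.09, adjusted p = 1.16e-12). Nrg1, neuregulin 1, stood at 118 and 119, against 37.9 and 19.2 (2.09 ± 0.24), and Areg, amphiregulin, at 139.9 and 122, against 62.5 and 47.3 (1.25 ± 0.17). Ereg was thus by far the most abundant of these ligands at day 1. In the interleukin 1 family 12 of 16 were higher and 1 lower (median 0.54). The 3 interleukin 36 cytokines of the epidermis rose by like amounts, Il1f6 by 1.17, Il1f8 by 1.18 and Il1f9 by 1.12, and the decoy receptor Il1r2 rose by 0.95. Il1b itself stood at 159 and 122, against 92.5 and 119 (0.41 ± 0.14, adjusted p = 0.0418), and did not pass without the first day 1 library (0.21) or the first day 0 library (0.23), nor with no filter on low values, with the replicate block, or in fits of the 4 libraries alone or the 8 of SDS alone.

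Tnf and Il6, classical inflammatory cytokines, did not pass. Of 17 cytokines and growth signals 6 were higher and 1 lower (median 0.58). Tnf stood at 61.2 and 78.9 at day 1, against 43.2 and 49.7 at day 0 (0.58 ± 0.24, adjusted p = 0.0875), and passed only with edgeR and DESeq2 among the settings tried. Il6 was close to 0 in all 4 libraries, at 1.94 and 6.72, against 3.52 and 0 (adjusted p = 0.372). Lif, of the interleukin 6 family, was the member that fell, with 23.3 and 38.6 at day 1 and 143 and 142 at day 0 (-2.21 ± 0.34). Among chemokines 11 of 29 were higher and 2 lower (median 0.30), or 7 higher without the first day 1 library. Ccl17, which attracts T cells, stood at 389 and 382, against 31.7 and 37.7 (3.44 ± 0.37), Ccl20 at 388 and 355, against 153 and 109 (1.51 ± 0.14), and Cxcl13, which attracts B cells, at 1831 and 1589.8, against 724 and 668 (1.29 ± 0.07). These 3 were higher in both day 1 libraries. Cx3cl1 was lower, with 153 and 165, against 434 and 474 (adjusted p = 7.62e-07). Cxcl1 (0.41 ± 0.18, adjusted p = 0.117) and Ccl2 (0.26 ± 0.37, adjusted p = 0.672), which attract neutrophils and monocytes, did not pass. Acute phase genes rose in 10 of 18, with 1 lower (median 1.05). Serpina3n stood at 20137 and 18964, against 5211 and 5454 (1.87 ± 0.04), and Saa3 at 244 and 235, against 9.69 and 32.1 (3.68 ± 0.30).

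Markers of immune cells differed by cell type. Macrophage and monocyte markers were higher in 16 of 26 cases and lower in 1 (median 0.55), and their summed level was 64131 and 62197 at day 1 and 43843 and 43859 at day 0. Cd163, a scavenger receptor of resident macrophages, stood at 5361 and 5355, against 2913 and 2812 (0.90 ± 0.05), and Mrc1 rose by 0.73, while Adgre1, which codes for F4/80, did not pass (0.31 ± 0.12, adjusted p = 0.0783). Among neutrophil genes 8 of 20 were higher and 0 lower (median 0.70), with sums of 2881 and 2730 at day 1 and 785 and 942 at day 0. Clec4d, a lectin of myeloid cells, stood at 65.1 and 64.6, against 1.76 and 3.21 (4.27 ± 0.26), and the chemokine receptor Cxcr2 at 347 and 287, against 35.2 and 58.5 (2.77 ± 0.23). The defining genes of the mature neutrophil were at or near 0 in the same libraries: Ly6g had 0 reads in all 4, Ngp had 2 reads over the day 1 libraries and 0 over the day 0 libraries, and Ltf had 0 and 2. Of the 8 that rose, S100a8, S100a9 and Lcn2 are also in the list of stress keratins and antimicrobial genes. The counts of 0 by limma in this and the next paragraph were also 0 with edgeR, with DESeq2 and at an unadjusted p of 0.05.

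Lymphocyte genes were lower or did not pass. Of 20 T and NK cell genes 4 were lower and 0 higher (median -0.51), or 1 lower when either day 0 library or the second day 1 library was left out and 7 lower with edgeR or DESeq2. Thy1, which fibroblasts also make, stood at 2342 and 2295 at day 1, against 6751 and 7010.4 at day 0 (-1.57 ± 0.06), while Cd3e, which defines T cells, stood at 154 and 125, against 212 and 188, and did not pass (-0.52 ± 0.52, adjusted p = 0.527). Of 6 B cell and plasma cell genes 3 were lower and 0 higher (median -1.27), among them Ighm at 1007 and 892, against 2434 and 2542 (-1.39 ± 0.16), and Igkc at 233 and 228, against 814 and 765 (-1.77 ± 0.25). Both antibody genes were lower in each day 1 library. Dendritic and Langerhans cell genes had 3 higher and 3 lower of 18 (median -0.18), or 7 lower with edgeR or DESeq2, and Cd207, the Langerhans cell lectin, did not pass (-0.31 ± 0.23, adjusted p = 0.38). Mast cell genes had 4 of 12 higher and 0 lower (median 0.48). Among them Hdc, which makes histamine, stood at 328 and 285, against 91.6 and 89 (1.75 ± 0.18), and Tpsb2, a mast cell tryptase, rose by 1.25, while the chymase Cma1 did not pass (0.27 ± 0.14, adjusted p = 0.198). Red blood cell genes had 5 of 7 higher and 0 lower (median 0.97), with sums of 5529 and 5061 at day 1 and 2430 and 3097 at day 0, so both day 1 libraries lay above both day 0 libraries in these blood genes.

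Of 24 interferon genes 1 was higher and 5 were lower (median -0.26), beside 12.8% higher and 13.5% lower over all genes tested. The number lower was 2 without the first day 0 library, 3 without the second and 1 without the second day 1 library, but 10 with edgeR and 9 with DESeq2. Gbp2, a guanylate-binding protein, stood at 651 and 682 at day 1, against 1216 and 1136 at day 0 (-0.82 ± 0.11). Antigen presentation genes had 1 of 18 higher and 9 lower (median -0.28), or 5 lower without the second day 0 library. H2-Ab1, of MHC class II, stood at 15695 and 15164, against 19353 and 19878 (-0.35 ± 0.05), and the immunoproteasome subunit Psmb8 fell by 0.62. Complement and coagulation genes had 9 of 19 higher and 4 lower (median 0.40), with C1qa of macrophages rising by 0.78 and C3 falling by 0.34. Eicosanoid enzymes had 5 of 17 higher and 2 lower (median 0.22). Pla2g4e, a phospholipase, stood at 905 and 996, against 218 and 276 (1.95 ± 0.09), and Hpgd, which breaks prostaglandins down, rose by 1.32, while Ptgs2, the inducible cyclooxygenase, did not pass (0.20 ± 0.19, adjusted p = 0.486).

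**Figure D4:**
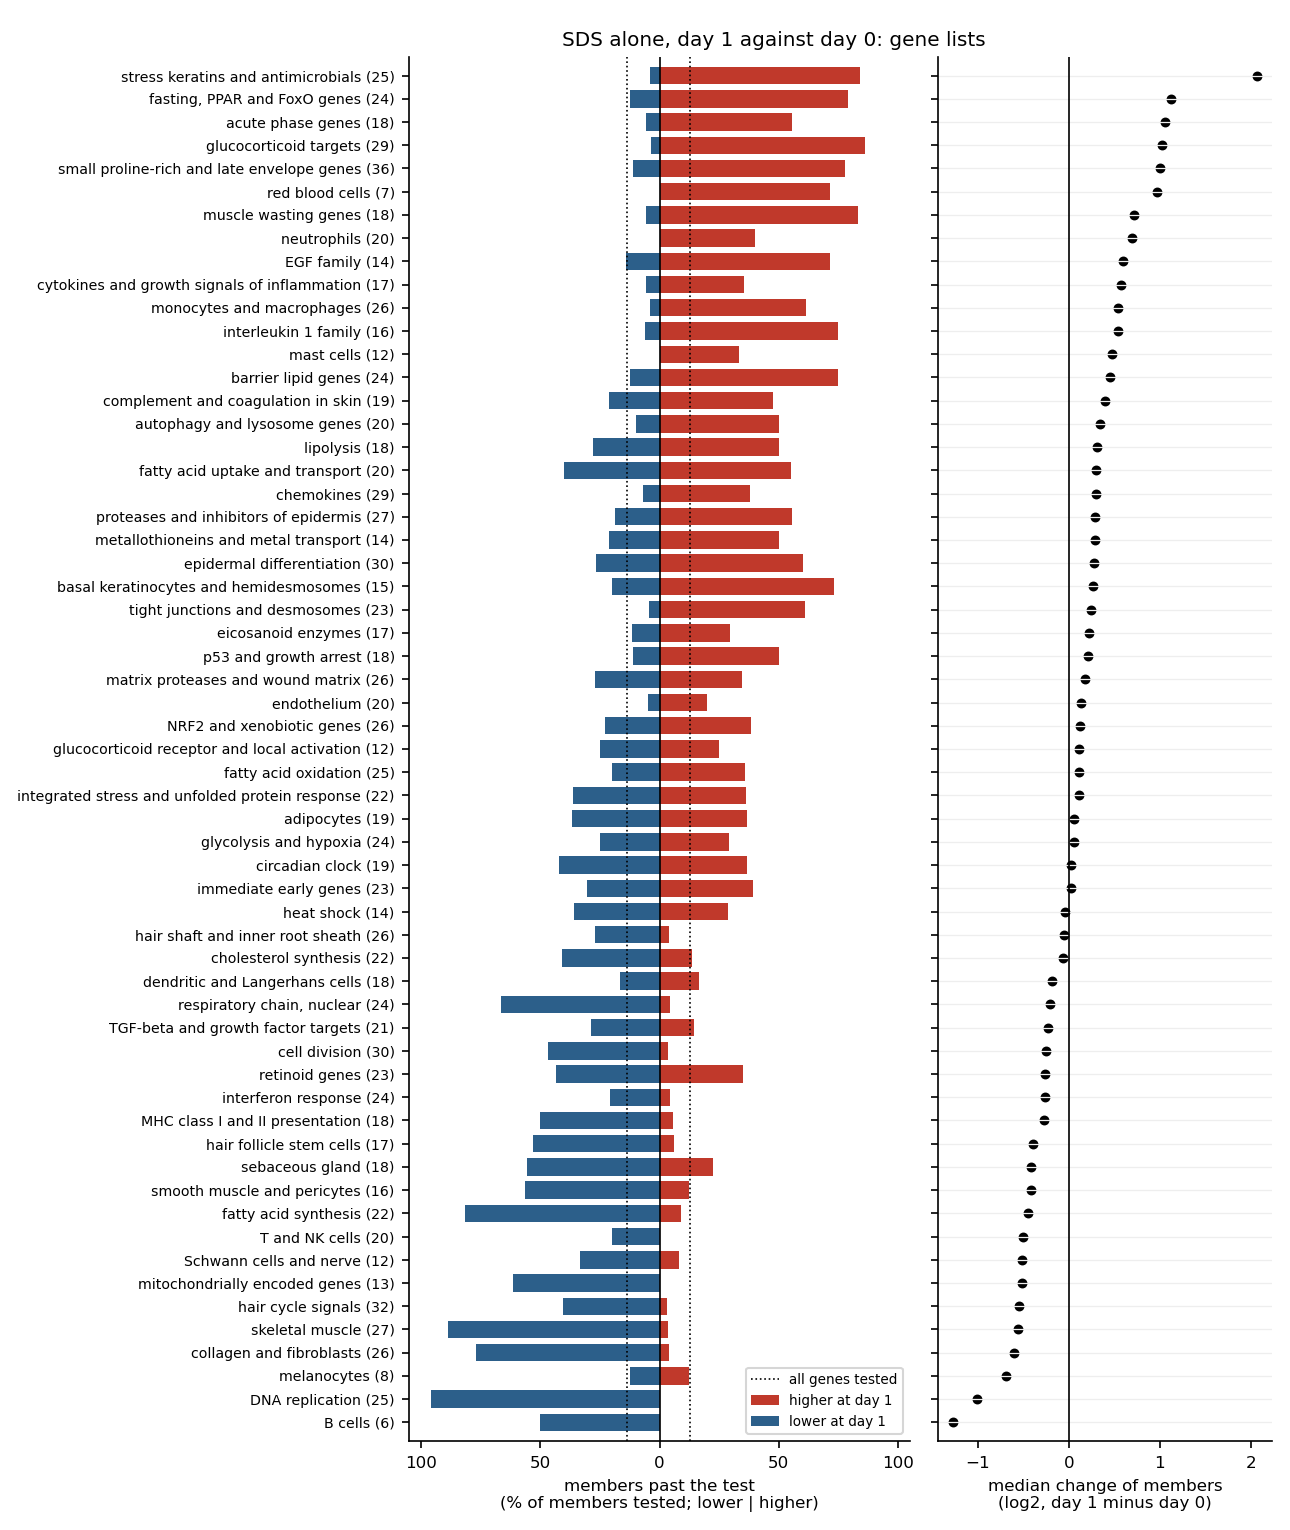
Share of tested members that passed the test as higher (red, right) or lower (blue, left) at day 1 of SDS alone (left panel, percent, with dotted lines at 12.8 and 13.5%, the shares over all genes) and median log2 change (right panel) of the 59 lists, ordered by median, with the number tested in brackets. The list of stress keratins and antimicrobial genes stands at the top with a median of 2.07. The lists of DNA replication and B cells stand at the bottom with -1.01 and -1.27.

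In the dermis, 20 of 26 collagen and fibroblast genes were lower and 1 was higher (median -0.60), with sums of 252893 and 248647 at day 1 and 419541 and 429591 at day 0. Col1a1, the main collagen chain of the dermis (ENSMUSG00000001506, chr11:94936224-94953042), stood at 42028 and 39872, against 84506 and 91055 (-1.10 ± 0.05, adjusted p = 1.75e-10). Col3a1 stood at 24540.0 and 24664, against 55684 and 57716 (-1.20 ± 0.05), and Lum, lumican, which spaces collagen fibrils, at 1158 and 1309, against 6533 and 6177 (-2.37 ± 0.23). In all 3 both day 1 libraries lay far below both day 0 libraries. Dcn, decorin, fell only slightly (-0.22 ± 0.04), with 48054 and 48226, against 58760.3 and 53685. Lox, the enzyme that cross-links collagen, was the member that rose, with 3261 and 3673 at day 1 and 732 and 659 at day 0 (2.32 ± 0.10). Matrix protease and wound matrix genes had 9 of 26 higher and 7 lower (median 0.17), and Timp3, an inhibitor of matrix proteases, stood at 1963 and 2093, against 5073 and 4707 (-1.27 ± 0.08). Targets of TGF-beta and growth factors had 3 of 21 higher and 6 lower (median -0.23), and Igfbp5 stood at 7712 and 8106, against 24746 and 23672 (-1.61 ± 0.07).

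Endothelial genes had 4 of 20 higher and 1 lower (median 0.13), or 2 higher without either day 0 library or the second day 1 library, and neither Pecam1 (0.23 ± 0.13, adjusted p = 0.24) nor Cdh5 (-0.03 ± 0.10, adjusted p = 0.891), which define the lining of vessels, passed. Vcam1, an adhesion molecule for leukocytes, rose by 1.15. Smooth muscle and pericyte genes had 2 of 16 higher and 9 lower (median -0.42), or 5 lower without the second library of either day. Mylk fell by 0.82, while Acta2 rose slightly (0.20 ± 0.05) and Myh11 did not pass (0.11 ± 0.10, adjusted p = 0.487). Schwann cell genes had 1 of 12 higher and 4 lower (median -0.52), or 2 lower without any 1 of the 4 libraries. Melanocyte genes had 1 of 8 higher and 1 lower (median -0.70), and Dct, a pigment enzyme, did not pass (-0.58 ± 0.47, adjusted p = 0.423).

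In the list of hair follicle stem cells 9 of 17 were lower and 1 higher (median -0.39). Cd34, a marker of the bulge that vessels and fibroblasts also carry, stood at 5013 and 5078 at day 1, against 11256 and 11995 at day 0 (-1.20 ± 0.09), and Fgf18, a signal that keeps follicles at rest, at 216 and 186, against 870.3 and 829 (-2.08 ± 0.26). Lgr5, a marker of cycling follicle stem cells, stood at 108 and 123, against 269 and 212, and did not pass (-1.05 ± 0.95, adjusted p = 0.485), although it did with edgeR, with DESeq2 and in the fit of the 4 libraries alone. Of 32 hair cycle signals 13 were lower and 1 higher (median -0.55), or 8 lower without the second day 0 library, with Wnt5a (-1.47 ± 0.13) and Sostdc1 (-1.32 ± 0.11) among the falls. Hair shaft and inner root sheath genes had 7 of 26 lower and 1 higher (median -0.06), or 2 lower without the second day 0 library. Krt25 and Krt71, keratins of the growing follicle's inner root sheath, were close to 0 in all 4 libraries, at 1.94 and 0, against 0 and 0, and at 0 and 1.68, against 1.76 and 3.21. Of the 26 genes, 5 had 0 reads in all 4 libraries and were tested only because other groups held them. Sums of the hair shaft list were 5395 and 5311 at day 1 and 6218 and 6468 at day 0.

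Retinoid genes had 8 of 23 higher and 10 lower (median -0.26). Beside Crabp1, Stra6, the cell-surface receptor for the retinol carrier, stood at 48.6 and 40.3 at day 1, against 499 and 526 at day 0 (-3.50 ± 0.22, adjusted p = 3.32e-09). Aox4, an aldehyde oxidase that makes retinoic acid, stood at 25.3 and 17.6, against 225 and 208 (-3.30 ± 0.14). Both genes, like Crabp1, were lower in each day 1 library. Other enzymes of the list were higher: Rdh16, a retinol dehydrogenase, rose by 2.23, Dhrs9, of the same enzyme class, by 0.54, Aox1, an aldehyde oxidase, by 0.39, and Cyp26b1, which breaks retinoic acid down, by 0.33.

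DNA replication genes fell almost without exception, with 24 of 25 lower and 0 higher by limma (median -1.01), and 0 higher with edgeR, with DESeq2 or at an unadjusted p of 0.05. Mcm5, a subunit of the replicative helicase, stood at 284 and 242 at day 1, against 787 and 845 at day 0 (-1.63 ± 0.10, adjusted p = 2.04e-09), and Uhrf1, which maintains DNA methylation at the fork, at 242 and 242, against 903 and 894 (-1.89 ± 0.08). Ccne1, the cyclin that opens S phase, stood at 17.5 and 22.7, against 75.8 and 84.1 (-1.95 ± 0.29). Both day 1 libraries lay far below both day 0 libraries in these genes. Mcm7 was the member that did not pass, with 1147 and 1163, against 1171 and 1329 (-0.11 ± 0.08, adjusted p = 0.375). Outside the list, Pclaf, which binds the replication clamp PCNA, was among the 15 largest falls, at 54.4 and 67.2, against 500.3 and 331 (-2.73 ± 0.18). Summed, the list held 8643 and 8522 at day 1 and 15300 and 15496 at day 0.

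Among genes of mitosis fewer passed, with 14 of 30 lower and 1 higher (median -0.25). Mki67, the usual marker of cycling cells, stood at 1538 and 1534 at day 1, against 2811 and 2565 at day 0 (-0.81 ± 0.06), and Birc5, survivin, at 169 and 179.6, against 404 and 331 (-1.07 ± 0.12). Ube2c, which acts late in mitosis, was the member that rose, with 386 and 383 at day 1 and 297 and 308 at day 0 (0.35 ± 0.10, adjusted p = 0.0151). Of 18 genes of p53 and growth arrest 9 were higher and 2 lower (median 0.21). Cdkn1a, the cyclin kinase inhibitor p21, stood at 10329.6 and 10347, against 6938 and 7050.5 (0.56 ± 0.04), and Trp53inp1 at 4096 and 4964, against 1167 and 1019 (2.05 ± 0.10).

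The letters TTTGGCGC and TTTCCCGC, both forms of the site of E2F factors, were in 2.72% of all 300-base windows searched on both strands, in 1.94% of those of genes called higher and in 4.08% of those of genes called lower. Among DNA replication genes 7 of 17 windows (41.2%) held either form. Stretches of 4 are shown because these genes fell together (RefSeq, GRCm38.p6, 5′ to 3′ on the gene's strand, which is plus for Cdc6 and Mcm5 and minus for Mcm6 and Pola1), with the matched letters in capitals on whichever strand they lie.
Cdc6, chr11:98907987-98908046: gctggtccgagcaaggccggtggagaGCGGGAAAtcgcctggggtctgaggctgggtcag
Mcm5, chr8:75109334-75109393: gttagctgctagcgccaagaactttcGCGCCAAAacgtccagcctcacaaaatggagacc
Mcm6, chr1:128359731-128359830: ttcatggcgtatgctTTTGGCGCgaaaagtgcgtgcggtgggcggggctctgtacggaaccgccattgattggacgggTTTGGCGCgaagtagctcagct
Pola1, chrX:93632260-93632319: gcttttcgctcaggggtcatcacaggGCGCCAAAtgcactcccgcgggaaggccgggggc
Cdc6, which loads the helicase, fell by 1.30, Mcm6, a further helicase subunit, by 0.78 and Pola1, the catalytic subunit of the priming polymerase, by 0.93. In cell division genes 0 of 24 windows held these letters.

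Clock genes moved in both directions, with 7 of 19 higher and 8 lower (median 0.03). Nr1d1, the repressor REV-ERB alpha, stood at 3757 and 3515 at day 1, against 481 and 484 at day 0, or 7.54-fold in means (2.91 ± 0.06, adjusted p = 5.83e-15). Per1, which glucocorticoids also induce, stood at 5584 and 5214, against 2576 and 2714 (1.03 ± 0.05), while Per3 stood at 354 and 406, against 1002 and 1051 (-1.43 ± 0.10), and Per2 fell by 0.79. The 3 Period genes were thus not moved alike. The sources used here do not give the hour at which skin was taken, and its part in these values was not tested. Ciart, a repressor of the clock, rose by 0.73 and its window held the E-box CACGTG, which clock factors bind, at 3 places, as shown in capitals (RefSeq, GRCm38.p6, minus strand). E-boxes were in 9.38% of all windows and in 3 of 12 (25.0%) of the clock list. Beside Ciart, these were the windows of Bhlhe41 and Cry1, which fell (-0.85 and -0.75).
Ciart, chr3:95882256-95882355: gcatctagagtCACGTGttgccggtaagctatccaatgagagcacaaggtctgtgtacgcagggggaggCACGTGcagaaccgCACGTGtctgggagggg

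Immediate early genes, which respond within minutes to handling or injury, had 9 of 23 higher and 7 lower (median 0.02). Fosb stood at 401 and 338 at day 1, against 1391 and 1522 at day 0 (-1.98 ± 0.11), and Fos at 1031 and 863, against 1889 and 1850.4 (-0.99 ± 0.09), whereas Fosl1 rose by 1.39 and Jun did not pass (0.02 ± 0.05, adjusted p = 0.786). Genes of the integrated stress and unfolded protein responses had 8 of 22 higher and 8 lower (median 0.11). Chac1, which degrades glutathione, stood at 576 and 531, against 119 and 133 (2.13 ± 0.12), and Slc7a11, the cystine transporter, at 111 and 118, against 17.6 and 36.1 (2.13 ± 0.24), while the endoplasmic reticulum chaperone Hspa5 fell by 0.37. Heat shock genes had 4 of 14 higher and 5 lower (median -0.04), with Hspb1 rising by 0.79. NRF2 and xenobiotic genes had 10 of 26 higher and 6 lower (median 0.12): Cyp2b23 stood at 311 and 292, against 22.9 and 22.4 (3.67 ± 0.69, adjusted p = 0.00073), and Aldh3a1 at 3851 and 3557, against 9969 and 10245 (-1.45 ± 0.05). Metal genes had 7 of 14 higher and 3 lower (median 0.29). Mt1, given above, and the zinc importer Slc39a14 (1.97 ± 0.10) rose, and Mt4, the metallothionein of stratified epithelium, stood at 103 and 118, against 554 and 572 (-2.35 ± 0.18).

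Glycolysis and hypoxia genes had 7 of 24 higher and 6 lower (median 0.06), with Adm, adrenomedullin, rising by 1.59 and Pfkfb3, which speeds glycolysis, by 1.35. Nuclear genes of the respiratory chain had 16 of 24 lower and 1 higher (median -0.20), or 8 lower without the second day 0 library, 10 without the second day 1 library and 9 in a fit of the 4 libraries alone. Cox7a1, a subunit of muscle and heart, stood at 202 and 223 at day 1, against 381 and 385 at day 0 (-0.85 ± 0.20). Mitochondrially encoded genes had 8 of 13 lower and 0 higher by limma (median -0.52), with 0 higher also in edgeR, in DESeq2 and at an unadjusted p of 0.05. The number lower was 4 without the first library of either day and 4 with a robust variance prior. Their sums were 483662 and 508050 at day 1 and 778180 and 656150 at day 0, with the day 0 libraries further apart than those of day 1. These genes and those of skeletal muscle were lower in the same libraries, and the part of muscle in them was not tested.

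The same step, day 1 against day 0, was measured in skin titled SDS with Topsym, on libraries that share none with SDS alone. Topsym is, as background, a brand of fluocinonide, a potent topical glucocorticoid. The sources used here do not say whether the Topsym libraries of day 0 had had any. The change differed between the arms for 3307 genes (17.2% of those tested): it was more positive in SDS alone for 1546 (8.06%) and more negative for 1761 (9.18%), and 1660 of them were among the 5037 called in SDS alone. Without the first day 1 library, the change was more positive in SDS alone for 1014.

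Glucocorticoid targets had like medians in both arms, 1.03 in SDS alone and 1.16 in SDS with Topsym, with 6 members more positive and 6 more negative in SDS alone. Fkbp5 stood at 12105 and 12164 at day 1 with Topsym and at 1724 and 1785 at day 0 with Topsym, and its change was smaller in SDS alone by 0.50 (interaction -0.50 ± 0.06, adjusted p = 1.32e-05). Tsc22d3 (0.14 ± 0.07, adjusted p = 0.237) and Ddit4 (0.12 ± 0.07, adjusted p = 0.316) did not differ past the threshold. The levels of Fkbp5 at day 1 were thus close in both arms. DNA replication also had negative medians in both arms, -1.01 in SDS alone and -1.52 in SDS with Topsym, and for 12 of 25 members the fall was smaller in SDS alone, as in Mcm5 (0.73 ± 0.14, adjusted p = 0.00115). Stress keratins and antimicrobial genes had medians of 2.07 in SDS alone and 2.83 in SDS with Topsym, but their members were split, with 6 more positive and 5 more negative in SDS alone. Their sums in SDS alone were 120352 and 107811 at day 1, against 59751 and 61316 at day 0. With Topsym they were 100097 and 101644 at day 1, against 61343 and 63102 at day 0.

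The arms went apart in muscle, fat, sebaceous and hair genes, and here the day 0 groups differed in tissue markers. All 27 skeletal muscle genes had a more negative change in SDS alone (median -0.56, against 1.47 with Topsym). Their sums with Topsym were 710438 and 716182 at day 1 and 219577 and 215911 at day 0. Of 22 fatty acid synthesis genes 20 were more negative in SDS alone (median -0.45, against 0.44 with Topsym). Elovl6 stood at 2545 and 2515 at day 1 with Topsym and at 2458 and 2461 at day 0 with Topsym (interaction -2.36 ± 0.08, adjusted p = 1.35e-12), so its levels in both groups with Topsym were close to that at day 1 of SDS alone. Sebaceous gland sums with Topsym were 38431 and 38303 at day 1 and 38467 and 37604 at day 0. In hair shaft and inner root sheath genes 20 of 26 were more positive in SDS alone: Krt25 stood at 1.64 and 0 at day 1 with Topsym and at 3931 and 3733 at day 0 with Topsym, so reads of this keratin were abundant in the day 0 group with Topsym and in none of the 4 libraries of SDS alone compared here. Of these 26, 5 had 0 reads in those 4 libraries and passed the filter only through other groups. Their difference between the arms therefore rests on the Topsym groups alone. The change was also more positive in SDS alone for 15 of 24 interferon genes (medians -0.26 in SDS alone and -1.34 with Topsym), 15 of 18 antigen presentation genes (-0.28 and -0.92) and 7 of 7 red blood cell genes (0.97 and -1.51). The part of hair, muscle and blood markers in the differences between the arms was not tested.

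**Figure D5:**
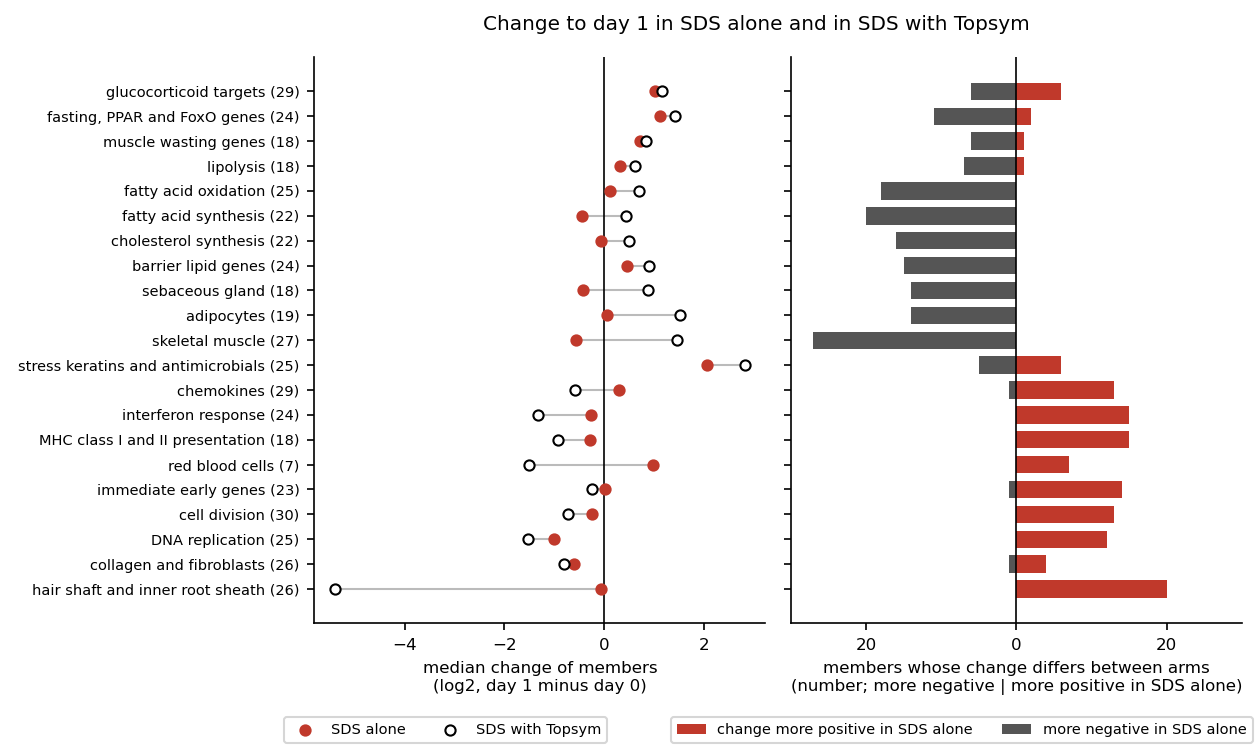
Left, median log2 change from day 0 to day 1 in SDS alone (filled) and in SDS with Topsym (open) for 21 lists, with the number of genes tested in brackets. Right, the number of members whose change was more positive (red) or more negative (grey) in SDS alone by the test of the difference. Glucocorticoid targets lie together near 1, skeletal muscle and fatty acid synthesis lie on opposite sides of 0, and hair shaft genes reach -5.41 with Topsym.

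Later days of SDS alone place day 1 within a course, on 2 libraries a day. Pdk4 stood at 688 and 588 at day 0, 17079 and 17311 at day 1, 41192 and 42555 at day 3 and 616 and 714 at day 5. Trim63 stood at 731 and 752, 9789 and 9199.9, 26664 and 26778, and 5297 and 5338 at the same 4 days. Both were higher at day 3 than at day 1, and Pdk4 was back near its day 0 level at day 5. Ereg stood at 803 and 721, 4715 and 5298, 837 and 791, and 1036 and 966, so its high level was seen at day 1 and not at day 3. Ccl17 was likewise higher at day 1 than at day 3, with 389 and 382, against 70.8 and 90.4. Sprr1b went on upward, with 20265 and 19780.3 at day 3 and 82491 and 85935 at day 5, and S100a8, still at 121 and 125 at day 1, stood at 10648 and 10027 at day 3 and at 49453 and 48624 at day 5. Mcm5 stood at 787 and 845, 284 and 242, 772 and 852, and 2127 and 2287, lowest at day 1. Krt10 stood at 139009 and 130720 at day 1 and 47142 and 42945 at day 3. These levels are given as descriptions, with no test of one day against another beyond day 1 against day 0.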

How the data were processed

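Whole-skin RNA was sequenced in 16 libraries, made with RNeasy Micro extraction and an Agilent SureSelect strand-specific kit, per the labels' protocols. Per the submitters' processing notes, the tools were Trim Galore 0.6.7, HISAT2 2.2.1, featureCounts 2.0.3 and DESeq2 2.11.40.8, with mm10. The authors deposited a normalised expression signal for 32078 genes, made from read counts. All values were whole multiples of a step per library, within 1e-04, so whole reads were recovered for the count tests. Even counts made up 70.3 to 72.0% of counts from 1 to 20 in the 4 libraries compared, so mates may have been counted apart and counting intervals are then too narrow. The sources used here do not say if counting used strand, so genes overlapping on opposite strands may share reads, as may near copies (Sprr2, Lce3, Krt6, Saa, Defb and hemoglobin genes). Libraries of a group differed by more than counting noise (chi-square per degree of freedom 4.95 at day 1 and 6.71 at day 0). The series' design text describes fatty acids and sorted stem cells, not these samples, and was not used.

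The 19189 genes that reached a value of 10 in 2 or more of the 16 libraries were tested. Differences of log2(value + 1) were fitted over all 8 groups in R 4.3.3 by limma 3.58.1, letting the variance follow a trend with level, on 8 residual degrees of freedom. P-values were adjusted over all genes by Benjamini and Hochberg, with a threshold of 0.05. The difference between the arms was a contrast of the same fit. The steps were tested on simulated data with changes set in advance. They recovered 59.7% of 67 changes of 1.5-fold, 59.7% of 67 of 2-fold and 83.3% of 66 of 4-fold, and 3.57% of calls were false. A gene that did not pass may therefore still have changed. The simulated data held far fewer changed genes (67, 67 and 66 of 18875) than the 26.2% called here, and their noise followed the spread of these same libraries. The shares recovered and false may therefore not carry over to the data. Gene lists were described by counts and medians, with no test of a list. Gene positions came from GENCODE M21 and promoters from RefSeq (GRCm38.p6).

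Genes named were the 15 largest rises and 15 largest falls (higher group's mean 100 or more, libraries not overlapping, predicted gene models left out), the 10 largest changes among genes with a mean of at least 5000, up to 6 members of each list, and 25 genes followed throughout. Other list members named in the text were chosen after their values were seen. The comparison, lists and members were chosen with earlier results of these data known. Some genes picked by the rule are not reported here. Alternatives were a pseudocount of 4, other filters, TMM factors, fits of fewer libraries, a replicate block, a robust prior on the variance, a minimum log2 change of 1, each library left out in turn, and edgeR 4.0.16 and DESeq2 1.42.0 on recovered reads.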

Additional observations from a re-analysis of the deposited data

Results flagged for a closer look

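Of the 36 genes with the largest or most abundant changes at day 1 of SDS alone, 18 had a change that differed from that of SDS with Topsym by the test of the difference (limma, adjusted p under 0.05). The same held for 17.2% of all genes tested and for 1660 of the 5037 called in SDS alone. The 36 were chosen by their change in SDS alone, which is part of this difference, so a high share was partly set by that choice. Values are on the log2 scale as SDS alone minus SDS with Topsym. The change was more positive in SDS alone for Slpi (0.75), Sh2d5 (0.90) and Sprr1a (0.28). It was more negative in SDS alone for Pdk4 (-1.66), Sprr1b (-0.52), Serpina3m (-1.91), Trim63 (-1.47), Cyp2b23 (-3.84), Plin5 (-1.92), Sprr2h (-0.43), Ereg (-0.89) and Fkbp5 (-0.50), which rose in SDS alone. It was also more negative for Myh7 (-8.44), Acaa1b (-2.32), Xlr3b (-2.77), Aox4 (-3.23), Myod1 (-3.33) and Elovl6 (-2.36), which fell in SDS alone. Each arm has 2 libraries a day.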

How the results depend on the processing

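Calls at day 1 of SDS alone numbered 5037 (2449 higher, 2588 lower), and 4234 to 5862 under the alternatives other than the size threshold and left-out libraries. Requiring a log2 change of at least 1 gave 1090 (512 higher, 578 lower). Leaving out 1 library gave 3609 to 3791 in all, 1858 to 1958 higher and 1714 to 1933 lower, with the lowest number lower without the second day 0 library. edgeR gave 5862 and DESeq2 5751. TMM factors gave 2597 higher and 2439 lower, and moved the median by 0.0152. For the difference between the arms, 3307 calls (1546 more positive, 1761 more negative in SDS alone) became 2355 to 2980, 1014 to 1396 and 1317 to 1584 when 1 library was left out, with 1014 without the first day 1 library, and 4020 with edgeR and 4071 with DESeq2. Same-numbered libraries did not deviate together (correlation of day 0 with day 1 -0.031, and -0.031 to 0.030 over all pairs of groups), so the numbers pair nothing, and the replicate block gave 4923 and 3214 calls. Of 330 named genes under all alternatives, 4341 of 4609 results kept direction and side of the threshold, 263 lost the call (70 genes, most of them when a library was left out), 5 gained it and 0 changed direction. In the fit of the 4 libraries alone, basal keratinocyte genes had 7 higher, integrated stress genes 4 lower, heat shock genes 3 lower, glycolysis genes 2 lower and sebaceous gland genes 2 higher. Depth limits the genes with a few reads in a group, such as Sprr2a1 and Krt25.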
